A study of Drosophila melanogaster with 14 samples.

Results

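The genes studied here encode the structural proteins of the fly cuticle, and their transcripts were compared between sesB1 and wild-type adults of Drosophila melanogaster. They comprised all probesets of the Affymetrix Drosophila 2.0 array that were annotated with a single gene symbol and whose symbol started with Cpr and a digit, Twdl, Lcp, Ccp84A, Pcp or Edg and a digit, or was Acp1 or Acp65Aa. This rule gave 107 probesets for 105 genes, out of 18769 probesets tested. Of the 107 probesets, 67 belonged to Cpr genes, 24 to Twdl genes, 8 to Lcp genes, 3 each to Ccp84A and Edg genes, 1 to Pcp and 1 to Acp65Aa. Acp1 and the larval genes Lcp1 to Lcp4 were not analysed here, and 7 probesets with several symbols were left out.

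The gene sesB encodes an adenine nucleotide translocase, the carrier that exchanges ATP for ADP across the inner mitochondrial membrane. The allele sesB1 is a point mutation that serves as a model of human ANT1 disease, so the amount of sesB transcript does not test the labels. RNA was prepared from batches of whole flies, giving 4 arrays for each sex of sesB1 and 3 for each sex of wild type. All flies were F1 hybrids of Canton S mothers and Oregon R fathers, and the females were virgins. The sesB1 parents came from stocks in which the mutation had been outcrossed to each strain for many generations and then held over a balancer chromosome. The wild-type parents were of the same strains without the mutation. The labels and the paper give an age of 2 days, and the description of the series gives 1 day after eclosion.

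The insect cuticle is secreted by the epidermis and by other ectodermal tissues such as the trachea, and it consists mainly of chitin fibres embedded in proteins. Most Cpr, Lcp, Pcp, Ccp84A and Acp proteins carry the Rebers and Riddiford consensus, a chitin-binding sequence, whereas the Tweedle (Twdl) proteins form a separate family of cuticle proteins. Different sets of these genes are used for the larval, pupal and adult cuticles, each deposited around a moult under the control of ecdysone, and the adult cuticle goes on being thickened and tanned after the fly has emerged.

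Each value given below is a log2 signal from which the median of that probeset over the 14 arrays had been subtracted, so 0 is the middle of the 14 arrays and a difference of 1 is 2-fold. Such values order the arrays for a gene but not the genes by their level, and whether a probeset was above the background of the array is unknown. Since whole flies were used, fewer cells of a type and less RNA per cell cannot be told apart. Arrays of 1 group correlated at r from 0.855 to 0.982 over all probesets. Several arrays held more of the transcripts of the other sex. The mean of 7 accessory gland genes lay between -5.60 and -4.14 in 3 of the sesB1 female arrays and at -2.20 in array 4, and the mean of 11 ovary genes lay at -3.75 in wild-type male arrays 1 and 3 and at -1.20 in array 2. The main results with sesB1 female arrays 2 and 4, or wild-type male array 2 and sesB1 male array 4, left out are therefore given too.

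Most cuticle protein genes differed little between sesB1 and wild-type flies, and a small set of Cpr genes was higher in sesB1. In females 20 of the 107 probesets passed the test at an adjusted p under 0.05, which is 18.7% of them against 32.2% of all probesets. Of these, 19 were higher in sesB1 and 1 was lower, where 13.4% of all probesets were higher and 18.9% were lower. In males 18 passed, or 16.8% against 21.9% of all probesets. Here 15 were higher and 3 were lower, beside 11.1% and 10.8% of all probesets. A change of at least 2-fold was reached by 7 higher and 1 lower probeset in females, beside 3.05% and 2.42% of all probesets, and by 3 higher and 1 lower in males, beside 1.38% and 0.741%. The median log2 change of the 107 probesets was 0.09 in females and 0.04 in males, beside 0.01 and -0.01 over all probesets. In both sexes the calls lay mostly on the higher side. The share of members called higher was only a little above that of all probesets in both sexes, at 17.8% beside 13.4% in females. The share called lower was further from it, at 0.935% beside 18.9% in females and 2.8% beside 10.8% in males. The lean of the calls thus came more from few lower calls than from many higher ones. After quantile normalization of the arrays the count in females was 9, of which 7 were higher and 2 lower, and 8 of these were among the 20. The count in males was then 16. Quantile normalization was applied to values already centred on each probeset, so it made the spread of these deviations alike on all arrays. With each array centred on its median instead, 19 of the 20 female calls and 16 of the 18 male calls stayed. With sesB1 female arrays 2 and 4 left out the female count was 26, and with wild-type male array 2 and sesB1 male array 4 left out the male count was 17.

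**Figure D1:**
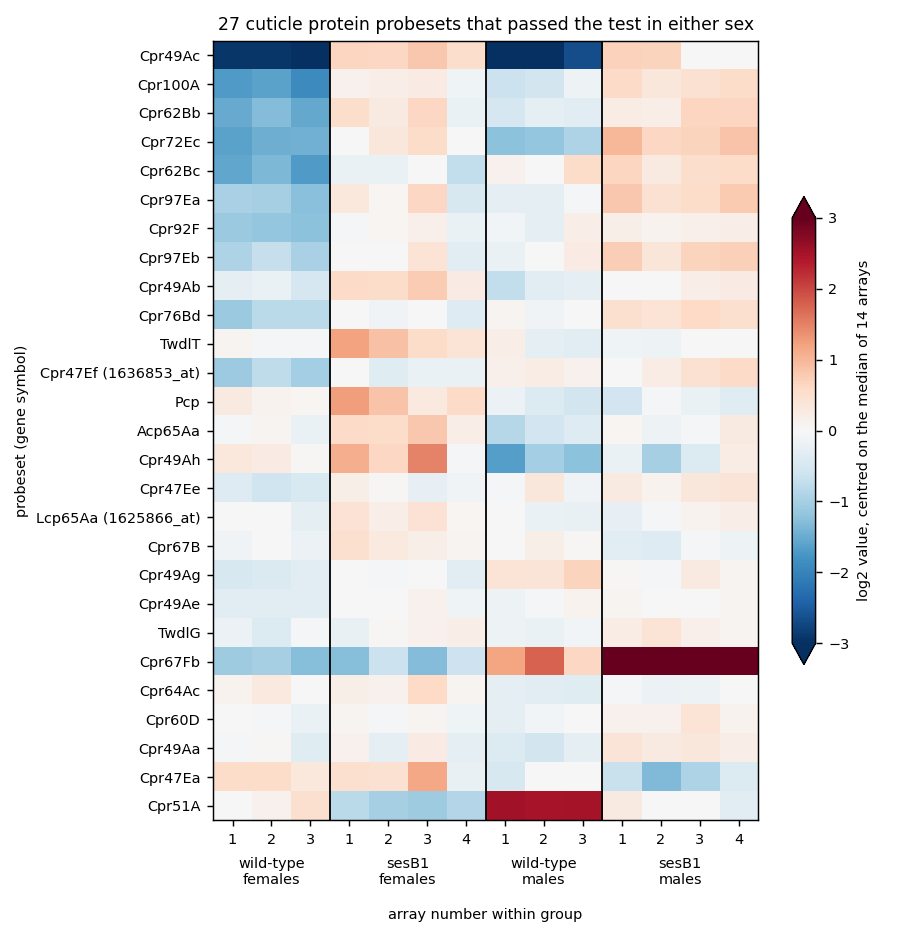
Centred log2 values of the 27 probesets that passed the test in females or males (rows, ordered by the change in females) on the 14 arrays (columns, numbered within their group). Blue is below and red above the median of the 14 arrays, and colours saturate at 3. The darkest contrasts are those of Cpr49Ac between genotypes in both sexes, Cpr67Fb in sesB1 males and Cpr51A in wild-type males.

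The 9 probesets that were higher in sesB1 flies of both sexes were those of Cpr49Ac, Cpr72Ec, Cpr100A, Cpr62Bb, Cpr97Ea, Cpr97Eb, Cpr49Ab, Cpr76Bd and Acp65Aa. They make up 8.41% of the members, beside 5.91% of all probesets that were higher in both sexes. All but Acp65Aa, which encodes an adult cuticle protein, belong to the Cpr family. Their log2 changes ran from 0.60 to 3.62 in females and from 0.50 to 3.38 in males. In each sex all 4 sesB1 arrays lay above all 3 wild-type arrays for all 9 of them. Over all probesets 31.5% in females and 21.4% in males passed with groups that did not overlap, and of the members 20 of 107 in females and 17 in males. Among the probesets that passed, 5905 of 6050 in females and 4017 of 4112 in males did not overlap. The separation of the 9 thus largely follows from their having passed. All 9 passed in both sexes on omission of any 1 array, and in each sex with the pairs of arrays named above left out. After quantile normalization all 9 passed in males, and 5 of them (Cpr49Ac, Cpr72Ec, Cpr100A, Cpr62Bb and Cpr49Ab) passed in females. With each array centred on its median all 9 passed in both sexes.

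Cpr49Ac (1631701_a_at), a gene of the Rebers and Riddiford family, had the largest rise of the members in each sex. In wild-type females its values were -2.92, -2.92 and -3.06, and in sesB1 females they were 0.64, 0.63, 0.82 and 0.53. In wild-type males they were -3.37, -3.09 and -2.66, and in sesB1 males 0.69, 0.67, -0.01 and 0.01. The genotypes were far apart in both sexes, and sesB1 male arrays 1 and 2 lay above arrays 3 and 4. The rise was 12.3-fold in females (log2 change 3.62 ± 0.09 SE, adjusted p = 5.01e-08) and 10.4-fold in males (3.38 ± 0.21, adjusted p = 3.76e-06). The difference between the sexes was 0.24 with a 95% interval from -0.32 to 0.80. The order of the 2 folds depends on the scaling, since after quantile normalization the rise was 8.07-fold in females and 23.0-fold in males (adjusted p = 0.000157 and 0.000135) and the difference between the sexes was -1.51 (adjusted p = 0.0845).

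Cpr72Ec (1626740_at), of the same family, also rose in both sexes. It read -1.60, -1.47 and -1.45 in wild-type females against 0.00, 0.34, 0.55 and 0.00 in sesB1 females. In males it read -1.24, -1.17 and -0.93 against 0.99, 0.61, 0.67 and 0.85. The gap between the genotypes exceeded the spread of the arrays in each sex. The change was 3.32-fold in females (1.73 ± 0.14, adjusted p = 5.78e-05) and 3.72-fold in males (1.89 ± 0.11, adjusted p = 2.08e-06). After quantile normalization these were 2.41-fold and 5.62-fold, and the difference between the sexes, -0.16 as deposited, was then -1.22 and passed (adjusted p = 0.0137).

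Cpr100A and Cpr62Bb rose more in females than in males. Cpr100A (1629919_at) read -1.71, -1.61 and -1.92 in wild-type females and 0.14, 0.20, 0.24 and -0.14 in sesB1 females, a 3.62-fold change (1.86 ± 0.12, adjusted p = 1.57e-05). In males the values were -0.64, -0.56 and -0.15 in wild type and 0.57, 0.34, 0.46 and 0.55 in sesB1, a 1.90-fold change (0.93 ± 0.12, adjusted p = 0.000341). The wild-type females were thus the low group. The difference between females and males was -0.37 ± 0.10 in sesB1 (limma, adjusted p = 0.00626), beside -1.30 in wild type. Cpr62Bb (1638472_at) read -1.52, -1.31 and -1.54 in wild-type females and 0.52, 0.26, 0.63 and -0.19 in sesB1 females, and its change was 3.39-fold (1.76 ± 0.18, adjusted p = 0.000179). In males it read -0.51, -0.28 and -0.33 in wild type and 0.23, 0.19, 0.64 and 0.65 in sesB1, and its change was 1.74-fold (0.80 ± 0.13, adjusted p = 0.00149). The order of the groups was the same as for Cpr100A. The difference between the sexes in the effect of genotype passed the test for Cpr100A (0.93 ± 0.18, adjusted p = 0.0014) and for Cpr62Bb (0.96 ± 0.24, adjusted p = 0.00824), and for no other of the 9. After quantile normalization these differences were 0.23 and 0.58 (adjusted p = 0.511 and 0.331), and the rise of Cpr100A in females was 2.34-fold.

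**Figure D2:**
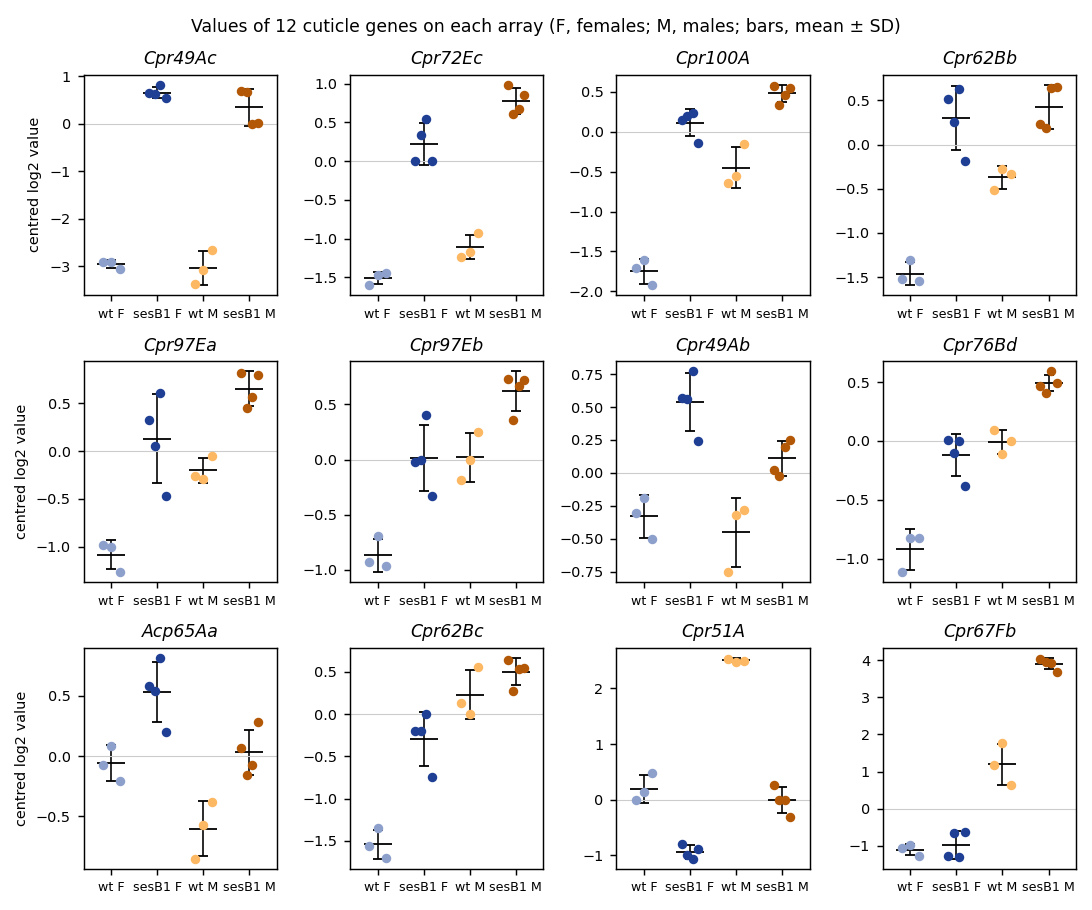
Centred log2 value (vertical axis, scaled for each gene) on each array for the 9 genes higher in both sexes and for Cpr62Bc, Cpr51A and Cpr67Fb. Points are arrays, and bars are the mean and SD of 3 wild-type or 4 sesB1 arrays. Cpr49Ac lies between -3.37 and -2.66 on all wild-type arrays and at or above -0.01 on all sesB1 arrays.

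The neighbouring genes Cpr97Ea and Cpr97Eb moved alike. Cpr97Ea (1630171_at) rose 2.31-fold in females (1.21 ± 0.22, adjusted p = 0.0027) and 1.80-fold in males (0.85 ± 0.11, adjusted p = 0.000295). In females it read -0.98, -1.0 and -1.26 in wild type and 0.32, 0.05, 0.61 and -0.47 in sesB1, where array 4 was the lowest. Cpr97Eb (1639351_at) rose 1.84-fold in females (0.88 ± 0.16, adjusted p = 0.00253) and 1.51-fold in males (0.60 ± 0.12, adjusted p = 0.00575). Its sesB1 female arrays read -0.02, 0.00, 0.40 and -0.33, again with array 4 below the rest. Both lost their call in females after quantile normalization, at log2 changes of 0.85 (adjusted p = 0.107) and 0.48 (adjusted p = 0.104).

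Acp65Aa (1639418_at), whose product is a component of the adult cuticle, had the same change in both sexes within its error. It read -0.07, 0.08 and -0.21 in wild-type females and 0.58, 0.54, 0.81 and 0.20 in sesB1 females. In males it read -0.85, -0.57 and -0.38 in wild type and 0.07, -0.16, -0.07 and 0.28 in sesB1. The rise was 1.51-fold in females (0.60 ± 0.14, adjusted p = 0.0094) and 1.55-fold in males (0.63 ± 0.13, adjusted p = 0.00595), and the interaction was -0.03 with an interval from -0.47 to 0.40. After quantile normalization the female change was 0.85 (adjusted p = 0.0705). Cpr49Ab (1637701_at) rose by 0.87 ± 0.13 in females and, in males, by 0.56 ± 0.12 (adjusted p = 0.00107 and 0.00801), and Cpr76Bd (1637391_at) by 0.80 ± 0.12 and 0.50 ± 0.08 (adjusted p = 0.00106 and 0.00105). The call for Cpr76Bd in females was lost after quantile normalization (0.35, adjusted p = 0.0731).

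The size of these rises differed between arrays of 1 group. For 8 of the 9 probesets sesB1 female array 4 was the lowest of its group, with a median deviation of -0.30 from the group mean, and array 3 was the highest for 8 of the 9. Over all members array 4 was the lowest sesB1 female array for 68 of 107. Among sesB1 males array 2 was the lowest for 8 of the 9. The genes Lsp2, Fbp1 and Fbp2, whose transcripts mark the larval fat body, also stood apart by genotype. Their mean lay between -6.04 and -5.68 in wild-type females and between 0.53 and 0.86 in sesB1 females, and between -5.52 and -4.42 in wild-type males and between -0.07 and 0.72 in sesB1 males, and all 3 were higher in both sexes. On sesB1 female arrays 1 to 4 this mean was 0.81, 0.67, 0.86 and 0.53. It was thus highest on array 3 and lowest on array 4, each also the case for 8 of the 9 probesets. On sesB1 male arrays 1 to 4 it was 0.60, 0.72, -0.07 and 0.11. Array 2, the highest here, was the lowest for 8 of the 9. The part of these transcripts in the cuticle results was not tested.

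Only Cpr51A (1638869_at), also of the Rebers and Riddiford family, was lower in sesB1 flies of both sexes, where 2.75% of all probesets were lower in both. In wild-type males it read 2.53, 2.48 and 2.50, and in sesB1 males 0.26, 0.00, 0.00 and -0.31. In wild-type females it read 0.00, 0.13 and 0.48, and in sesB1 females -0.80, -1.0, -1.06 and -0.89. Wild-type males were far above the other groups, and the sesB1 male arrays lay near those of wild-type females. Its transcript was 5.73-fold lower in sesB1 males (-2.52 ± 0.12, adjusted p = 5.14e-07) and 2.20-fold lower in sesB1 females (-1.14 ± 0.12, adjusted p = 0.000231). The effect was larger in males, with an interaction of 1.38 ± 0.18 (adjusted p = 0.000109). After quantile normalization the transcript was 3.65-fold lower in sesB1 males.

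Cpr67Fb (1638742_at) rose in males and was not detectably changed in females. It read 1.18, 1.76 and 0.63 in wild-type males and 4.04, 3.95, 3.92 and 3.68 in sesB1 males. In females it read -1.06, -0.99 and -1.28 in wild type and -1.27, -0.65, -1.31 and -0.63 in sesB1. The male groups did not overlap, and the female groups did. Among sesB1 females the higher values were those of arrays 2 and 4, which also read higher for accessory gland and testis genes. The female change without these arrays is not given. The rise in males was 6.54-fold (2.71 ± 0.21, adjusted p = 1.5e-05), the change in females was 0.14 with an interval from -0.29 to 0.57, and the interaction was -2.57 ± 0.32 (adjusted p = 7.42e-05). After quantile normalization the rise in males was 11.3-fold and the interaction -3.66. The other 6 probesets that passed in males alone had changes from -0.67 to 0.96. Cpr49Aa rose by 0.72 ± 0.08 (adjusted p = 0.000177), and its interaction of -0.64 (adjusted p = 0.0195) lost the call without wild-type female array 1 or 2 (adjusted p = 0.0523 and 0.0518). Cpr49Ah rose by 0.96 ± 0.25 (adjusted p = 0.0196), and this call was lost without wild-type male array 1 (0.07) or sesB1 male array 1 (0.0508). Cpr47Ea fell by 0.67 in males (adjusted p = 0.0359), a call lost on omission of 4 of the 7 arrays, wild-type arrays 2 and 3 and sesB1 arrays 2 and 3 (adjusted p up to 0.119). TwdlG rose by 0.36 (adjusted p = 0.0134). Cpr60D (0.32) and Cpr64Ac (0.24) passed narrowly, and each lost its call on omission of any of 6 of the 7 arrays, the exceptions being wild-type array 3 for Cpr60D and sesB1 array 2 for Cpr64Ac.

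The 9 probesets that passed in females alone were all higher in sesB1. Cpr62Bc (1638896_at) read -1.56, -1.35 and -1.70 in wild-type females and -0.20, -0.20, 0.00 and -0.74 in sesB1 females, a 2.38-fold rise (1.25 ± 0.17, adjusted p = 0.000617). In males its groups overlapped, with 0.13, 0.00 and 0.56 in wild type and 0.64, 0.27, 0.53 and 0.55 in sesB1. Cpr92F (1633344_at) read -1.11, -1.15 and -1.23 in wild-type females and -0.05, 0.05, 0.15 and -0.19 in sesB1 females, a 2.23-fold rise (1.15 ± 0.10, adjusted p = 6.54e-05), beside a change of 0.22 in males with an interval from -0.02 to 0.45. For both genes the low group was again the wild-type females. The interaction was 0.98 ± 0.24 for Cpr62Bc (adjusted p = 0.00647) and 0.94 ± 0.15 for Cpr92F (adjusted p = 0.000393), and after quantile normalization it was 0.34 and 0.40 (adjusted p = 0.34 and 0.123), with a 1.55-fold rise of Cpr62Bc in females. The other 7 were TwdlT (0.77), 1 of the 2 probesets of Cpr47Ef (0.76), Pcp (0.60), Cpr47Ee (0.45), 1 of the 2 probesets of Lcp65Aa (0.38), Cpr67B (0.35) and Cpr49Ae (0.32), none of which passed after quantile normalization. Cpr49Ag moved in opposite directions, by 0.33 ± 0.10 in females and -0.40 ± 0.10 in males, and the difference passed the test (0.73 ± 0.14, adjusted p = 0.00184). Its call in females (adjusted p = 0.0368) was lost on omission of any array but sesB1 array 4. It was also lost after quantile normalization, where the female change was 0.07 (adjusted p = 0.681).

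In all, the effect of genotype differed between the sexes for 12 probesets, 11.2% of the members beside 27.6% of all probesets. It was more positive in females for 10 (beside 11.6% of all probesets) and more negative for Cpr67Fb and Cpr49Aa (beside 16.0%). After quantile normalization 6 passed, 3 in each direction. The log2 changes of the 2 sexes correlated at r = 0.74 (rho = 0.51) over the 107 probesets and at r = 0.71 without Cpr49Ac, Cpr51A and Cpr67Fb, beside 0.46 (rho = 0.22) over all probesets. These are correlations across probesets, which are not independent replicates.

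**Figure D3:**
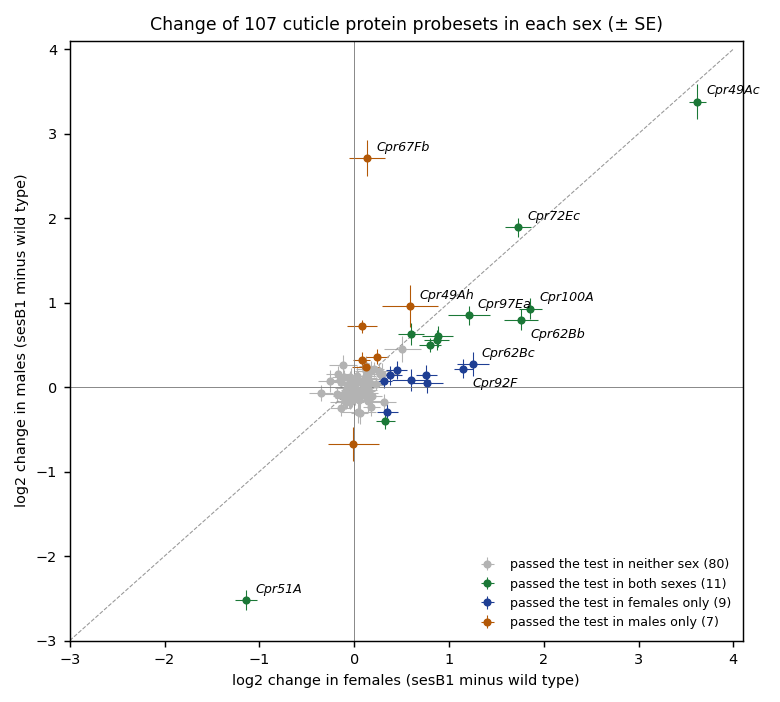
Log2 change (sesB1 minus wild type) in females (horizontal axis) and males (vertical axis) of the 107 cuticle protein probesets, with the SE of each. The dashed line marks equal change, and colours give the sex in which a probeset passed the test. Grey points, the 80 that passed in neither sex, sit around 0, while Cpr67Fb lies at 0.14 in females and 2.71 in males.

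The remaining 80 probesets passed in neither sex. The log2 change of 79 of them was within 0.5 in both sexes, the exception being Cpr64Aa (0.51 and 0.45, adjusted p = 0.0805 and 0.0617), and the 95% interval of all 80 was within 2-fold in both sexes. Among all probesets that did not pass, 12441 of 12719 in females and 14574 of 14657 in males also had intervals within 2-fold. For 71 of the 80 the arrays of the genotypes overlapped in both sexes. The share over all probesets was not counted, so this number says nothing particular about cuticle genes. These 80 include most of the genes named after larval and pupal stages. Of the 8 Lcp probesets, for larval cuticle proteins, the log2 changes ran from -0.08 to 0.38 in females and from -0.17 to 0.14 in males. The probeset that passed, for Lcp65Aa in females (1625866_at, adjusted p = 0.042), lost its call on omission of 6 of the 7 arrays, all but sesB1 array 4, and the other probeset of this gene (1629340_s_at) read -0.08. The 3 Ccp84A genes, a cluster of cuticle genes beside Edg84A, changed by -0.12 to 0.26, and none passed in limma, with 0 in females and 1 in males at an unadjusted p under 0.05 and 0 by Student's test. The ecdysone-dependent genes Edg78E, Edg84A and Edg91, which are induced in the prepupa, changed by 0.12, -0.05 and -0.17 in females. In males they changed by -0.01, -0.08 and 0.16, and none passed in limma (adjusted p from 0.286 to 0.969, 0 at an unadjusted p under 0.05 and 0 by Student's test). Of all probesets 32.2% passed in females and 21.9% in males. With 3 probesets in each of these 2 families, the lack of calls is therefore no result about them.

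Pcp (1623092_at), a pupal cuticle protein gene that lies in an intron of Gart, read 0.27, 0.10 and 0.07 in wild-type females and 1.26, 0.85, 0.29 and 0.58 in sesB1 females. In males it read -0.17, -0.42 and -0.56 in wild type and -0.58, -0.07, -0.21 and -0.36 in sesB1. The sesB1 females were spread widely above the other groups. Its rise in females of 0.60 ± 0.20 passed narrowly (adjusted p = 0.0453), and it did not pass on omission of any 1 wild-type female array or of sesB1 array 1 or 2 (adjusted p up to 0.128) or after quantile normalization (0.96, adjusted p = 0.147).

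Of the 24 Tweedle probesets, 1 passed in each sex, or 4.17% beside 32.2% of all probesets in females and 21.9% in males, and 22 passed in neither. Their changes ran from -0.25 to 0.77 in females and from -0.31 to 0.36 in males. TwdlT (1637562_at) read 0.08, -0.06 and -0.04 in wild-type females and 1.21, 0.89, 0.55 and 0.42 in sesB1 females (0.77 ± 0.17, adjusted p = 0.00791). In males it read 0.21, -0.26 and -0.34 in wild type and -0.14, -0.15, 0.02 and -0.02 in sesB1, where the groups overlapped. TwdlD, in which mutations alter the shape of the larva and pupa, changed by -0.25 in females and 0.07 in males, and TwdlC by -0.04 and 0.02, none of which passed. None of the 8 members on the X chromosome passed in limma in either sex, with 0 at an unadjusted p under 0.05 and 0 by Student's test.

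Many cuticle genes lie in tandem clusters, and within these some members passed and others did not. The shares that passed in a cluster stand beside 32.2% of all probesets in females and 21.9% in males. In the 49A cluster 4 of 8 probesets (50.0%) passed in females and 5 of 8 (62.5%) in males, and the log2 change of the neighbours of Cpr49Ac was 0.87 for Cpr49Ab and 0.15 for Cpr49Ad in females. In the 62B cluster Cpr62Bb and Cpr62Bc rose in females while Cpr62Ba changed by 0.13. In the 72E cluster Cpr72Ec rose while Cpr72Ea and Cpr72Eb changed by 0.10 and 0.23 in females, and in males by 0.00 and 0.04. In the 76B cluster Cpr76Bd rose while the other 3 genes changed by -0.15 to 0.07 in either sex. In the 67F cluster Cpr67Fb rose in males while Cpr67Fa1 and Cpr67Fa2 changed by -0.18 and 0.13. The 65A cluster, with 12 probesets for 11 genes, had 2 that passed in females (16.7%) and 1 in males (8.33%), both shares below those of all probesets, and the probesets other than those of Acp65Aa and Lcp65Aa changed by -0.18 to 0.16. Of the 8 probesets of the 47E cluster 2 passed in females (25.0%) and 1 in males (12.5%), again below all probesets. The 2 probesets of Cpr47Ef differed, 1636853_at at 0.76 ± 0.11 (adjusted p = 0.000855) and 1627490_at at 0.06 in females.

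**Figure D4:**
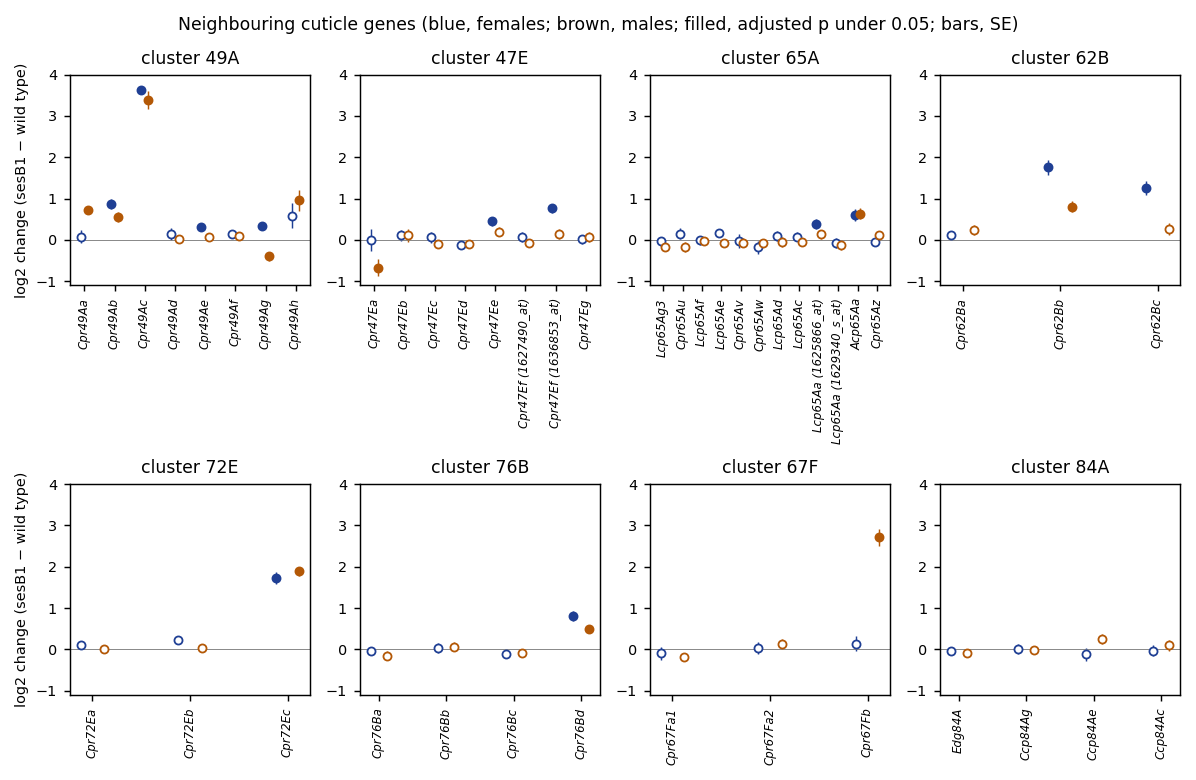
Log2 change (sesB1 minus wild type, vertical axis, with SE) of the members of 8 gene clusters, in their order along the chromosome. Blue points are females and brown points males, and filled points passed the test. Filled points stand beside open points near 0 in most clusters, for example Cpr72Ec beside Cpr72Ea and Cpr72Eb.

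Cuticle genes also differed between wild-type females and males. Of the 107 probesets 44 passed, or 41.1% beside 61.6% of all probesets, with 27 higher and 17 lower in females, beside 37.2% and 24.4% of all probesets. This split depends on the scaling, since wild-type female arrays were higher by a median of 0.15 over all probesets. With each array centred on its median it was 12 higher and 24 lower, and after quantile normalization 11 and 23. Differences of at least 2-fold were reached by 1 probeset higher in females and 9 lower, where 18.1% and 14.1% of all probesets did so.

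Cpr49Ah (1633647_at) was higher in wild-type females, at 0.31, 0.25 and 0.04 against -1.66, -1.02 and -1.22 in males (1.50 ± 0.16, adjusted p = 2.41e-05). The 9 lower in females were Cpr51A (-2.30), Cpr67Fb (-2.30), Cpr62Bc (-1.76), Cpr100A (-1.30), Twdlalpha (-1.30), Cpr56F (-1.24), a probeset of Cpr47Ef (-1.13), Cpr92F (-1.11) and Cpr62Bb (-1.08). Twdlalpha and Cpr56F had sex differences of like size in sesB1. Cpr56F (1626291_at) read -0.64, -0.73 and -0.99 in wild-type females and 0.53, 0.49 and 0.35 in wild-type males. In sesB1 it read -0.47, -0.87, -0.35 and -0.82 in females and 0.91, 0.55, 0.52 and 0.62 in males. Males were above females in both genotypes, by 1.24 ± 0.11 and 1.28 ± 0.13 on the log2 scale (adjusted p = 6.78e-06 and 8.65e-06), and genotype changed it by 0.16 and 0.19 in females and males, neither of which passed. Twdlalpha (1638788_at), an X-linked Tweedle gene, read -0.69, -0.73 and -0.56 in wild-type females and 0.79, 0.49 and 0.65 in wild-type males, and its difference in sesB1 was -1.26 ± 0.09 (adjusted p = 5.13e-07).

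Among the smaller differences, TwdlD (0.78), Ccp84Ae (0.69), Cpr47Ea (0.64) and Cpr35B (0.59) were higher in wild-type females, and after quantile normalization Cpr47Ea (0.34, adjusted p = 0.0753) and Cpr35B (0.27, adjusted p = 0.075) did not pass. Of the 24 Tweedle probesets 11 (45.8%) were higher in females and 1 lower (4.17%) in each genotype, beside 37.2% and 24.4% of all probesets in wild type. The Tweedle median was 0.25 beside 0.15 over all probesets in wild type, and after quantile normalization it was 0.06 beside 0, with 4 higher and 3 lower in wild type and 6 and 2 in sesB1. Without wild-type male array 2, or without array 3, 7 were higher in wild type. In sesB1 44 of the 107 probesets were higher in females and 13 lower, beside 43.6% and 21.3% of all probesets. This split too depends on the scaling, and it was 18 and 22 with each array centred on its median and 14 and 21 after quantile normalization. The difference between sesB1 females and males was largest for Cpr67Fb, at -4.87 ± 0.17 (adjusted p = 1.05e-09), and it was -0.92 ± 0.11 for Cpr51A, -0.37 ± 0.10 for Cpr100A, -0.17 ± 0.08 for Cpr92F and -0.12 ± 0.18 for Cpr62Bb. The last 2 did not pass (adjusted p = 0.0894 and 0.558).

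**Figure D5:**
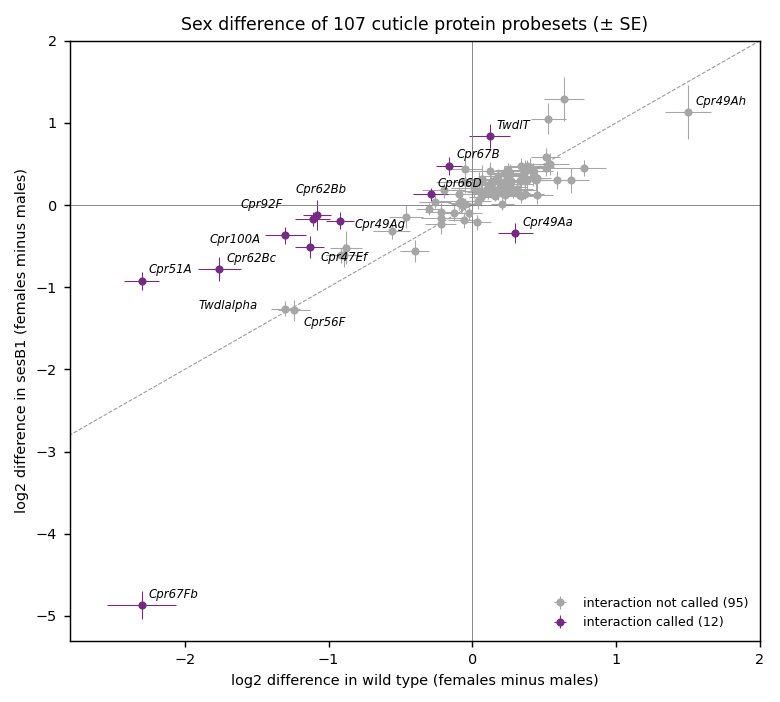
Log2 difference between females and males in wild type (horizontal axis) and in sesB1 (vertical axis) for the 107 cuticle protein probesets, with the SE of each. The dashed line marks an equal difference, and the 12 purple points are those whose interaction of sex and genotype passed the test. Cpr67Fb has a difference of -2.30 in wild type and -4.87 in sesB1, while Cpr51A has -2.30 and -0.92.

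The genes that make and modify the other components of the cuticle were followed in 5 lists, whose counts are to be read against all probesets, of which 13.4% were higher and 18.9% lower in sesB1 females and 11.1% and 10.8% in sesB1 males. Of 39 genes of chitin synthesis and assembly, 22 (56.4%) were higher and 2 (5.13%) lower in sesB1 females, and 21 (53.8%) higher and 2 lower in sesB1 males, with median log2 changes of 0.49 and 0.34. kkv, the epidermal chitin synthase, rose by 1.28 ± 0.14 in females and, in males, by 0.83 ± 0.16 (adjusted p = 0.000236 and 0.00395), and Chs2, the chitin synthase of the midgut, by 1.29 ± 0.16 and 0.95 ± 0.06. The chitin deacetylase gene verm rose by 1.22 and 0.70, and Gfat1, at the head of the pathway to the chitin precursor, by 1.13 and 0.51. Cht12, a chitinase family gene, was lower in males alone, at -1.15 ± 0.09 (adjusted p = 1.93e-05). After quantile normalization 10 of the 39 passed in females, all higher, and 18 were higher and 2 lower in males. With wild-type male array 2 and sesB1 male array 4 left out 13 were higher and 3 lower in males, and by Student's test 12 were higher.

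Among 24 genes of tanning and pigmentation, sesB1 females had 12 that rose (50.0%) and 2 that fell (8.33%), and sesB1 males 7 that rose (29.2%) and 4 that fell (16.7%), where 13.4% and 18.9% of all probesets did so in females and 11.1% and 10.8% in males. yellow-d2, of the yellow family, rose by 1.18 ± 0.16 and 1.09 ± 0.10, whereas speck, which acetylates dopamine, rose by 1.18 in females and changed by 0.15 in males. The 2 lower in females were yellow-g and yellow-g2 (both -1.77), which are known from the ovary, where they act in the eggshell. After quantile normalization 7 were higher in females and none was lower, and with wild-type male array 2 and sesB1 male array 4 left out 5 were higher and 1 lower in males. Without wild-type male array 2 alone, 7 passed in males in either direction. Student's test gave 8 higher and none lower in females and 5 higher and 2 lower in males.

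Of 26 regulators of moulting and of the ecdysone response, 3 were higher (11.5%) and 5 lower (19.2%) in females, close to the 13.4% and 18.9% of all probesets, and none passed in males, beside 21.9% of all probesets, where 1 had an unadjusted p under 0.05 in limma and 0 passed Student's test. Kr-h1, a zinc finger protein of the hormone response, rose by 1.36 ± 0.17 in females (adjusted p = 0.000401), and Cyp18a1, an enzyme that inactivates ecdysone, fell by 0.81 (adjusted p = 0.00306). The female count of 8 was 3 after quantile normalization and 5 without wild-type female array 1 or without sesB1 female array 1. In males 1 gene passed with the replicate number as a block.

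Of 15 apical matrix and zona pellucida domain genes, 4 were higher in females (26.7%), and 3 of the 15 were higher and 1 lower (6.67%) in males, beside 13.4% of all probesets higher in females and 11.1% and 10.8% higher and lower in males. By Student's test 1 was higher and 1 lower in males. pot, a zona pellucida domain protein that links epidermis to cuticle, rose by 1.55 ± 0.12 and 0.69 ± 0.13 (adjusted p = 4.4e-05 and 0.00422). Of 14 genes of cuticular hydrocarbon synthesis, 9 were higher (64.3%) and 1 lower (7.14%) in females, beside 13.4% and 18.9% of all probesets, whereas 2 were higher (14.3%) and 7 lower (50.0%) in males, beside 11.1% and 10.8%. The fatty acid synthase FASN3 was 0.50 higher in females and 0.92 lower in males on the log2 scale, and the elongase bond 0.89 higher and 0.31 lower. After quantile normalization females had 5 that rose and 1 that fell, and males 2 and 4, and with wild-type male array 2 and sesB1 male array 4 left out 2 were higher and 3 lower in males.

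Markers of the tissues that secrete cuticle and of other cells were examined too. These lists are short, and their counts stand beside 32.2% of all probesets that passed in females (13.4% higher, 18.9% lower) and 21.9% in males (11.1% and 10.8%). Of 7 genes of trachea and epidermis, of which serp, verm and grh also stand in the lists above, 5 were higher in females and 2 in males, and their mean lay between -0.62 and -0.43 in wild-type females, -0.10 and 0.10 in sesB1 females, -0.12 and 0.14 in wild-type males and 0.07 and 0.19 in sesB1 males. Of 7 hemocyte genes 5 were higher in females and 3 in males, with means from -0.57 to -0.43 and from 0.16 to 0.65 in wild-type and sesB1 females, and from -0.40 to -0.29 and from -0.04 to 0.27 in the males. Of 7 muscle genes 3 were higher in females, and 1 was higher and 2 were lower in males. Among 11 ovary genes, females had 2 that rose and 4 that fell and none passed in males. Among 14 testis genes, females had 1 that rose and 1 that fell, and males 7 that fell. All 7 accessory gland genes were lower in males and none passed in females, and of 4 adult fat body genes 1 was higher in females and 1 lower in males. Arrays with transcripts of the other sex enter these counts, which are not given without them. The median change of the accessory gland genes in females was 1.26, with sesB1 arrays 2 and 4 at -4.14 and -2.20. The adult fat body mean in males was -0.94 on wild-type array 2 and -2.37 on sesB1 array 4, and -5.69 or lower on the others. The part of these tissues in the cuticle results was not tested.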

How the data were processed

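RNA of whole flies had been hybridized to 14 Affymetrix Drosophila 2.0 arrays. By the paper the authors normalized the raw data in Genespring GX. Its version, how probes were summarised and any filtering are details not given in the sources used here. Those values, as deposited by the authors, are log2 signals centred on the median of each probeset, recorded here with the unit score because 30 of 265328 values were spreadsheet date serials (12785 to 41716). These were set missing, and none fell in a cuticle probeset. The other values lay between -9.10 and 6.19. Array medians differed by at most 0.127 in females and 0.0852 in males, and the values were used as deposited. Such values give no brightness, so signal over background is unknown, and the number of arrays limits the precision.

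Of 18952 probesets, 183 controls were left out. Symbols were taken from the platform annotation, which gave 13646 probesets 1 symbol, 402 several and 4721 none. All 107 members matched the table of current genes (assembly Release 6), which was used for names and neighbours only. No sequence was available to print.

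Each sex had its own linear model in limma 3.58.1 (functions lmFit and eBayes, R 4.3.3), and the interaction came from a model of the 4 groups. Benjamini-Hochberg adjustment covered all 18769 probesets, and a probeset passed where the adjusted p was under 0.05, whatever its fold. Nothing beyond the word biological in the titles says that arrays of a group came from separate cultures, so p-values measure the spread between these arrays. The paper describes triplicate isolations, and all 4 arrays of each sesB1 group were used. The models were first tested on simulated data. Further steps used Python 3.11.15 with numpy 2.4.6, pandas 2.3.3, scipy 1.17.1 and matplotlib 3.10.9.

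The members, lists and tests were chosen with earlier results of these data known. Named with values are, for each sex and for the wild-type sex difference, up to 8 of the highest and 8 of the lowest changes among members that passed with non-overlapping arrays, the 6 largest interactions, all Acp, Edg and Pcp genes, and up to 4 genes of each list. The other members that passed, the neighbours in clusters, TwdlC, TwdlG and Cpr64Aa were named to account for every call or exception, after their values were seen. The alternatives were quantile normalization, centring of arrays, a joint fit, weights for the arrays, a block for the replicate number, 1 probeset per gene, Student's test as the paper names it, a 2-fold threshold, the omission of probesets with date serials and of each array. The omission of 2 arrays together, and the other scalings of the sex difference in sesB1 and of the Tweedle counts, were added after seeing the data.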

Additional observations from a re-analysis of the deposited data

Results flagged for a closer look

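For 12 cuticle probesets the effect of sesB1 differed between the sexes (interaction in limma, adjusted p under 0.05). The difference (log2 change in females minus that in males) was 1.38 for Cpr51A, 0.98 for Cpr62Bc, 0.96 for Cpr62Bb, 0.94 for Cpr92F, 0.93 for Cpr100A, 0.73 for Cpr49Ag, 0.72 for TwdlT, 0.64 for Cpr67B, 0.62 for Cpr47Ef and 0.41 for Cpr66D, and it was -0.64 for Cpr49Aa and -2.57 for Cpr67Fb. Cpr66D passed in neither sex alone (0.18 in females and -0.23 in males), and its interaction did not pass on omission of any of 10 of the 14 arrays, the exceptions being wild-type male arrays 1 and 2 and sesB1 female arrays 3 and 4 (adjusted p up to 0.102). The interaction of TwdlT did not pass without wild-type male array 1, wild-type female array 2 or 3, sesB1 male array 1 or 2 or sesB1 female array 2 (adjusted p up to 0.0922), and that of Cpr47Ef without wild-type female array 1 (adjusted p = 0.0503).

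In 2 of the 50 groups of 4 arrays examined for the 25 named genes, 1 array stood apart from the other three. TwdlD was at -0.02 on sesB1 male array 4, where the others were at -0.26, -0.23 and -0.22, and Twdlalpha was at 0.94 on sesB1 male array 1, where the others were at 0.60, 0.59 and 0.62. About 1 in 20 groups would be marked by chance.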

How the results depend on the processing

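The count of cuticle probesets that passed in females was 20, and it was 9 after quantile normalization and 8 at 2-fold or more. In males it was 18, and it was 9 by Student's test and 4 at 2-fold or more. The interaction count was 12, and 6 after quantile normalization. The count between wild-type females and males was 44, and 10 at 2-fold or more. On omission of 1 array these counts ranged from 15 to 26, from 15 to 22, from 9 to 17 and from 34 to 50, and the medians from 0.05 to 0.12 in females and from -0.01 to 0.08 in males. With sesB1 female arrays 2 and 4 left out the interaction count was 17. The 83.3% of interactions that were more positive in females were 50.0% after quantile normalization, and the 95.0% of female calls that were higher were 77.8%. Without wild-type male array 2 the wild-type sex difference was 18 higher and 18 lower. The sex difference of Cpr72Ec turned from -0.40 to 0.59 after quantile normalization. The cause of these shifts was not tested.

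Samples with the same replicate number did not deviate together (correlations from -0.174 to 0.137). These values gave no sign of pairing, though they cannot show that such samples were prepared apart. With the replicate number as a block the counts were 22 in females, 16 in males, 11 for the interaction and 44 for the wild-type sex difference. The other alternatives kept the counts within 1.5 times. What limits these data is the unknown signal over background, since a flat probeset may not have been detected.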
